A study of Mus musculus with 3 samples.

Results

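Capillary endothelial cells of mouse inguinal fat, a subcutaneous white depot, were selected on the UMI counts of single genes in 3 single-cell libraries, and 382 of the 10789 deposited barcodes met them. A barcode was first kept if it held at least 500 genes and at most 15% mitochondrial unique molecular identifiers (UMIs, each counting 1 captured transcript), which 8186 barcodes did. A member then needed a UMI of at least 3 of the 8 endothelial genes Pecam1, Cdh5, Egfl7, Cldn5, Ptprb, Flt1, Kdr and Emcn and at most 1 UMI of the leukocyte gene Ptprc. It also needed at least 2 summed UMIs of the capillary genes Gpihbp1, Cd300lg and Btnl9, with fewer than 2 of the venous genes Selp and Vwf and fewer than 2 of the arterial genes Sema3g, Sox17, Gja5 and Hey1. Members were thus chosen by the levels of these genes, which are given only as a description.

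The study asked how the cells of the fat pad differ when telomerase is deleted in mesenchymal progenitors. The 3 genotypes were Pdgfra-Cre; TERT fl/fl (called Pdgfra-Cre here), Pdgfrb-Cre; TERT fl/fl (Pdgfrb-Cre) and TERT +/+ (wild type), and each was 1 library of stromal and vascular cells. Tert codes for the reverse transcriptase of telomerase, and Cre removes the floxed alleles in cells that use the promoter of Pdgfra, active in fibroblasts and fat progenitors, or of Pdgfrb, active in pericytes and other mural cells. Neither promoter is typical of endothelial cells, and endothelial cells of these mice need not carry the deletion. The labels used here give neither age nor sex. Y-linked transcripts without Xist were found in 24 Pdgfra-Cre, 28 Pdgfrb-Cre and 111 wild-type members, Xist alone in 0 of any library, and both in 1 Pdgfra-Cre member. The wild-type sample is also titled with PBS, without further explanation. Removal of dead cells and of red blood cells preceded the capture of single cells, per the labels. With 1 library per genotype, genotype and library cannot be told apart and no test between genotypes was made, so every difference below is a difference between libraries, and both Cre libraries are set against the same wild-type library.

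Capillaries are the vessels across whose wall fat cells receive nutrients. In fat, GPIHBP1 on the capillary surface holds lipoprotein lipase, which frees fatty acids from circulating lipoproteins. CD36 and the fatty acid binding proteins FABP4 and FABP5 carry those fatty acids through the endothelial cell. Upstream of the capillaries lie arterial cells marked by Notch signalling genes, and downstream venous cells that bear the adhesion molecules for leukocytes.

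Members made up 45 of 1425 kept Pdgfra-Cre barcodes, or 3.16% (95% exact Clopper-Pearson interval 2.31 to 4.20). They made up 50 of 4033 Pdgfrb-Cre barcodes, or 1.24% (0.922 to 1.63), and 287 of 2728 wild-type barcodes, or 10.5% (9.39 to 11.7). Of all barcodes past the endothelial gate, members were 31.3% in Pdgfra-Cre (45 of 144), 22.2% in Pdgfrb-Cre (50 of 225) and 45.2% in wild type (287 of 635). Arterial-gated barcodes numbered 52 in Pdgfra-Cre, 101 in Pdgfrb-Cre and 165 in wild type, and venous-gated barcodes 12 in Pdgfra-Cre, 12 in Pdgfrb-Cre and 41 in wild type. The gates count UMIs, and depth differed between libraries: the median member held 3744 UMIs in Pdgfra-Cre, 4143.5 in Pdgfrb-Cre and 1692 in wild type, and the median arterial-gated barcode held 5849.5 in Pdgfra-Cre, 12473 in Pdgfrb-Cre and 3909 in wild type. The part of depth in these shares was not tested. All intervals here cover counting error only, not the spread between animals.

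**Figure D1:**
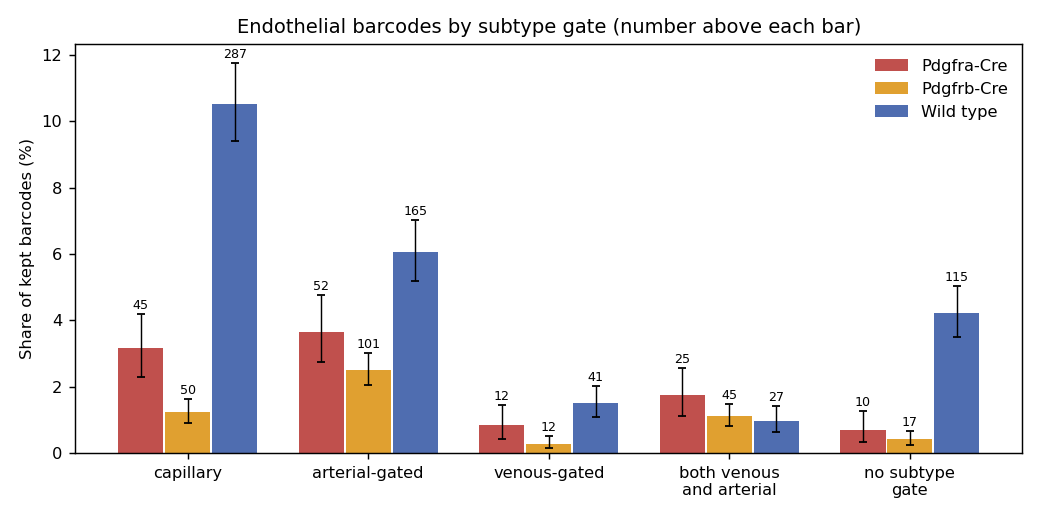
Share of kept barcodes (percent, vertical axis) that passed each endothelial subtype gate in the Pdgfra-Cre, Pdgfrb-Cre and wild-type libraries, with 95% exact Clopper-Pearson intervals and the number of barcodes above each bar. The capillary gate holds 3.16% of the kept barcodes in Pdgfra-Cre, 1.24% in Pdgfrb-Cre and 10.5% in wild type.

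The number of barcodes at the edge of the gate differed by gate and library. Exactly 2 capillary UMIs, the fewest that qualify, were seen in 7 Pdgfra-Cre members, 2 Pdgfrb-Cre members and 55 wild-type members, while 6 Pdgfra-Cre, 8 Pdgfrb-Cre and 61 wild-type barcodes met the other gates with 1. Exactly 1 arterial UMI was seen in 13 Pdgfra-Cre, 27 Pdgfrb-Cre and 92 wild-type members, and 13 Pdgfra-Cre, 16 Pdgfrb-Cre and 31 wild-type barcodes fell outside with 2. Exactly 1 UMI of the leukocyte gene Ptprc, the most allowed, was seen in 0 Pdgfra-Cre, 1 Pdgfrb-Cre and 27 wild-type members. All 8 endothelial genes were detected in 9 Pdgfra-Cre, 18 Pdgfrb-Cre and 35 wild-type members. No member barcode sequence was shared between libraries, and between 1 and 5 were shared over all barcodes of each pair of libraries.

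The label held for most members but not for all. Some barcodes that met the rule carried genes of lymphatic endothelium: Prox1, the transcription factor that sets lymphatic identity, Lyve1, a hyaluronan receptor, Mmrn1, a secreted multimerin, and Reln, a secreted glycoprotein. A UMI of at least 2 of these 4 genes was present in 11 of 45 Pdgfra-Cre members, which held 51.9% of the members' UMIs in that library, in 3 of 50 Pdgfrb-Cre members with 17.8% of the UMIs, and in 1 of 287 wild-type members. In the Cre libraries 10 of the 11 and all 3 had every one of the 4 genes. The chemokine gene Ccl21a (ENSMUSG00000094686), made by lymphatic endothelium, reached 938 UMIs in 1 such Pdgfra-Cre barcode and 1161 in 1 Pdgfrb-Cre barcode. Their level of Gpihbp1, 506 CPM (UMIs of a gene per 1000000 UMIs of the set) in Pdgfra-Cre and 548 CPM in Pdgfrb-Cre, was below that of the remaining members. The single wild-type barcode instead held 168 UMIs of Glycam1, a glycoprotein of lymph node high endothelial venules, beside 4 of Prox1 and 3 of Lyve1. In addition, 1 Pdgfrb-Cre member had 26.8% of its 15516 UMIs from haemoglobin genes.

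Without these barcodes a narrowed set of 34 Pdgfra-Cre, 46 Pdgfrb-Cre and 286 wild-type barcodes remained, 366 in all, or 2.39% of the kept barcodes in Pdgfra-Cre, 1.14% in Pdgfrb-Cre and 10.5% in wild type. None of the 34 Pdgfra-Cre and 46 Pdgfrb-Cre barcodes had a UMI of any of the 4 lymphatic genes, and 4 of the 286 wild-type barcodes had a UMI of 1 of them. The narrowing was chosen after the data were seen. It sets a threshold on the lymphatic and haemoglobin genes, whose levels in it are therefore a description. Values below are of the narrowed set unless all members are named, because over all members lymphatic genes stood at the top of the genes higher in each Cre library. Lyve1, for example, had 701 UMIs (2558 CPM) over all Pdgfra-Cre members and 233 UMIs (873 CPM) over all Pdgfrb-Cre members, against 5 UMIs (6.91 CPM) over all wild-type members.

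**Figure D2:**
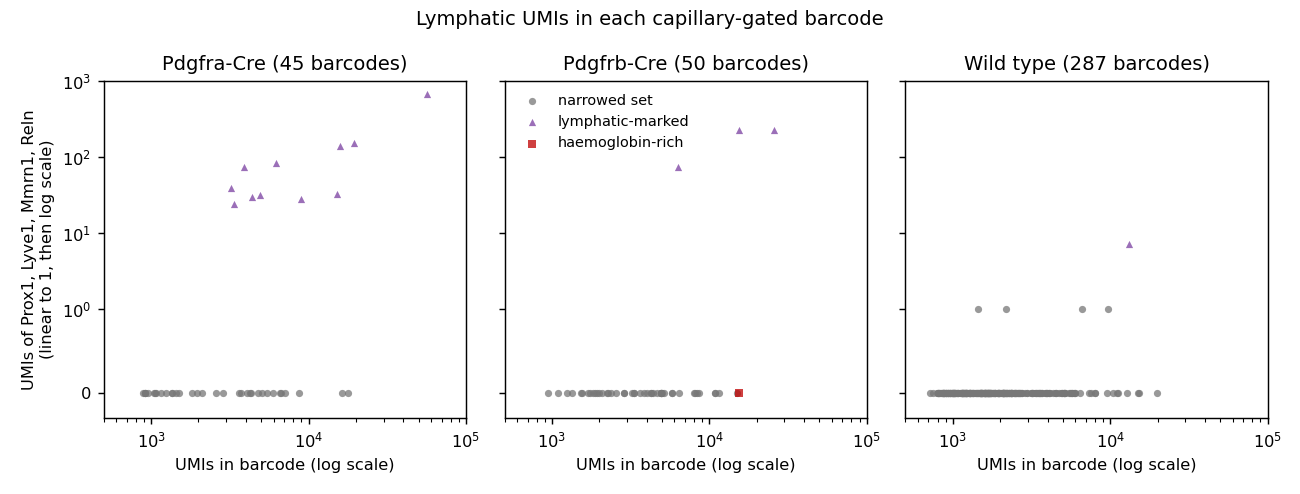
Total UMIs of each member barcode (horizontal axis, log scale) against its summed UMIs of lymphatic genes (vertical axis), in 1 panel per library, with lymphatic-marked, haemoglobin-rich and remaining members in different colours. The 11 lymphatic-marked Pdgfra-Cre barcodes include the deepest of all members, at 56613 UMIs.

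Genes of fatty acid uptake were among the most abundant transcripts of the capillary barcodes in every library. Each level is the summed UMIs of the set in CPM, and since the libraries count 3′ ends, it does not scale with transcript length. Fabp4, at chr3:10204088-10208576 (GRCm38, minus strand), had 44154 CPM in Pdgfra-Cre, 47464 CPM in Pdgfrb-Cre and 30749 CPM in wild type, and was detected in 34 of 34 Pdgfra-Cre, 45 of 46 Pdgfrb-Cre and 286 of 286 wild-type barcodes. Only the nuclear RNA Malat1 and Gm42418, an annotation that overlaps ribosomal RNA sequence, stood above it in the ranking over all members by the lowest of the 3 libraries. Cd36, at chr5:17781690-17888801 (minus strand), had 3619 CPM in Pdgfra-Cre, 5153 CPM in Pdgfrb-Cre and 3773 CPM in wild type, with a UMI in 32 of 34 Pdgfra-Cre, 45 of 46 Pdgfrb-Cre and 268 of 286 wild-type barcodes. Lymphocytes of the same libraries should lack both genes. They were taken as barcodes with at least 2 UMIs of T cell receptor complex genes or of Cd79a and Cd79b and none of the endothelial gate genes. The mix of T and B cells among them was not matched between libraries. The MHC class II gene Cd74, for example, had a UMI in 14.5% of Pdgfra-Cre and 46.0% of Pdgfrb-Cre lymphocytes. Fabp4 had a UMI in 20% of 255 Pdgfra-Cre, 17.1% of 2172 Pdgfrb-Cre and 25.3% of 933 wild-type lymphocytes, and Cd36 in 5.10% of Pdgfra-Cre, 2.07% of Pdgfrb-Cre and 4.18% of wild-type lymphocytes, at median depths of 5188 UMIs in Pdgfra-Cre, 5074 in Pdgfrb-Cre and 4059 in wild type. Also in the top 20 were Cavin2, which shapes caveolae, and Gpihbp1 itself. Fabp5 had 1373 CPM in Pdgfra-Cre, 1789.7 CPM in Pdgfrb-Cre and 2026 CPM in wild type.

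Among markers that did not enter the rule, those of the capillary separated members from venous-gated barcodes in all 3 libraries. A gene was compared when it had at least 50 CPM on either side in each library and 20 UMIs on the higher side, and log2 ratios carry 10 CPM added to both levels. Past 2-fold in every library, 57 of 1055 genes were higher in capillary barcodes (5.4%) and 40 were lower (3.79%), and over all members the counts were 61 of 1404 higher (4.34%) and 30 lower (2.14%). Venous-gated barcodes were the deeper ones, with medians of 13587.5 UMIs in Pdgfra-Cre, 7835.5 in Pdgfrb-Cre and 2759 in wild type. Timp4, an inhibitor of matrix metalloproteinases, had 819 CPM in capillary against 6.99 CPM in venous-gated barcodes of Pdgfra-Cre, 574 against 10.0 CPM in Pdgfrb-Cre and 523 against 0 CPM in wild type. Car4, a membrane-bound carbonic anhydrase, had 417 against 0 CPM in Pdgfra-Cre, 329 against 0 CPM in Pdgfrb-Cre and 399.5 against 24.1 CPM in wild type. Rgcc, a regulator of the cell cycle and of angiogenesis, had 1047 against 119 CPM in Pdgfra-Cre, 1187 against 100.3 CPM in Pdgfrb-Cre and 681 CPM against 2 UMIs in wild type. Next to them in the ranking stood Clic5, Ednrb, the endothelin B receptor, Aqp7, a glycerol channel, and Rbp7, a retinol binding protein. Of genes lower in capillary barcodes, Vcam1, an adhesion receptor for leukocytes, had 30.3 CPM in capillary against 769 CPM in venous-gated barcodes of Pdgfra-Cre, 0 against 251 CPM in Pdgfrb-Cre and 21.1 against 476 CPM in wild type. Ackr1, a chemokine-binding receptor of venules, had 30.3 against 497 CPM in Pdgfra-Cre, 4.90 against 261 CPM in Pdgfrb-Cre and 11.3 against 699 CPM in wild type. Sele, another leukocyte adhesion receptor, and Lrg1 stood in the same group. Vwf and Selp define the venous gate, so the direction of venous genes that accompany them is a description of the gate.

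The separation from arterial-gated barcodes was small, but that gate does not exclude barcodes with capillary genes. It asks for at least 2 arterial UMIs and fewer than 2 venous ones and sets no limit on capillary UMIs. With at least 2 capillary and exactly 2 arterial UMIs, 13 Pdgfra-Cre, 16 Pdgfrb-Cre and 31 wild-type barcodes counted as arterial-gated. Their part in the small separation was not tested. Only Aqp1 of 1917 genes was higher in capillary barcodes past 2-fold in every library (0.0522%), and Mt1 and Glul were lower (0.104%). Aqp1, a water channel, had 2906 CPM in capillary against 1350.2 CPM in arterial-gated barcodes of Pdgfra-Cre, 2363 against 1158 CPM in Pdgfrb-Cre and 1161 against 548 CPM in wild type. Glul, glutamine synthetase, had 83.5 against 249.9 CPM in Pdgfra-Cre, 63.7 against 175 CPM in Pdgfrb-Cre and 91.4 against 227 CPM in wild type. The metallothionein gene Mt1 had 37.9 against 407 CPM in Pdgfra-Cre, 39.2 against 217 CPM in Pdgfrb-Cre and 23.9 against 75.7 CPM in wild type. Over all members the count was 0 of 2542 higher (0%) and 3 lower (0.118%).

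**Figure D3:**
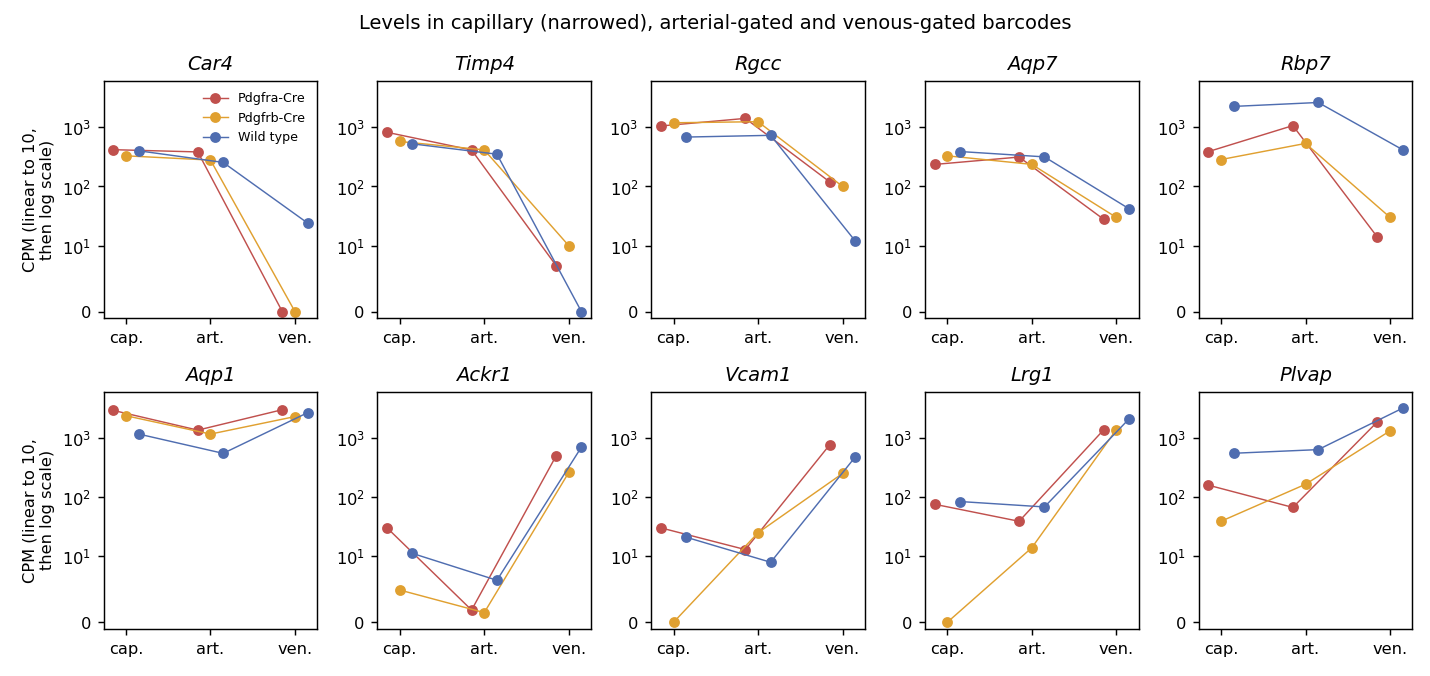
Levels (CPM, vertical axis, linear to 10 and logarithmic above) of 10 genes that did not enter the gates, in capillary barcodes of the narrowed set, arterial-gated and venous-gated barcodes of each library. Car4, Timp4, Rgcc, Aqp7 and Rbp7 are higher in capillary than in venous-gated barcodes of every library, and Ackr1, Vcam1, Lrg1 and Plvap are lower.

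Between genotypes, 12.1% of the compared genes of the narrowed set lay past 2-fold in either direction in Pdgfra-Cre and 15.1% in Pdgfrb-Cre. In the narrowed set, 88 of 2312 genes were higher in Pdgfra-Cre than in wild type (3.81%) and 192 were lower (8.3%); over all members the counts were 288 of 3219 (8.95%) and 184 (5.72%), and 40 of the higher genes were in both sets. In Pdgfrb-Cre, 212 of 2783 genes were higher (7.62%) and 209 lower (7.51%), and over all members 292 of 3153 (9.26%) and 184 (5.84%), with 172 of the higher genes in both sets. These counts ask for 20 UMIs in the higher library. The narrowed set holds 131811 UMIs in Pdgfra-Cre, 203946 in Pdgfrb-Cre and 710877 in wild type. A gene higher in a Cre library thus needs more CPM to enter than one higher in wild type, which favours lower genes. Over the compared genes the median log2 ratio was -0.20 in Pdgfra-Cre and -0.10 in Pdgfrb-Cre. For the gene lists below, every gene with at least 10 CPM in either library counted as measured. At that floor 7.51% of 9029 genes were higher past 2-fold and 11.9% lower in Pdgfra-Cre, 6.81% of 8836 were higher and 9.76% lower in Pdgfrb-Cre, or 19.4% in Pdgfra-Cre and 16.6% in Pdgfrb-Cre in either direction. The median log2 ratios over all of them were 0.03 in Pdgfra-Cre and -0.00 in Pdgfrb-Cre. Over all members 7.74% of 9368 genes were higher and 7.64% lower in Pdgfra-Cre, and 6.84% of 9211 were higher and 8.35% lower in Pdgfrb-Cre. A list share near these percentages is no result about the list.

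Immediate early genes, which encode transcription factors and regulators switched on within minutes of a stimulus, were higher in the capillary barcodes of both Cre libraries. Past 2-fold, 10 of 25 measured members of the list were higher in Pdgfra-Cre, with a median log2 ratio of 0.86. In Pdgfrb-Cre 14 of 26 were higher and 0 lower, with a median of 1.09. The number lower in Pdgfra-Cre is not given, because 1 of the 25, Myc, had 0 UMIs there and was measured only through wild type. Egr1, a zinc finger factor at chr18:34859823-34864984 (GRCm38, plus strand), had 3103 CPM in Pdgfra-Cre (2809 to 3419), 2721 CPM in Pdgfrb-Cre (2499.6 to 2957) and 423 CPM in wild type (377 to 474). That is 7.33-fold higher in Pdgfra-Cre (6.30 to 8.53) and 6.43-fold higher in Pdgfrb-Cre (5.58 to 7.42). A UMI of Egr1 was found in 32 of 34 Pdgfra-Cre, 43 of 46 Pdgfrb-Cre and 138 of 286 wild-type barcodes. At an equal depth of 2000 UMIs per barcode, with shallower ones left out, these were 17 of 18 Pdgfra-Cre, 29 of 34 Pdgfrb-Cre and 53 of 117 wild-type barcodes. Wild-type barcodes were thus low in Egr1 at matched depth too.

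In Pdgfrb-Cre the list was headed by Maff, a small Maf transcription factor, with 3 UMIs in Pdgfra-Cre, 20 in Pdgfrb-Cre and 5 in wild type, or 13.9-fold higher in Pdgfrb-Cre (5.08 to 47.5). Fos, a subunit of the AP-1 factor, had 2086 CPM in Pdgfra-Cre, 1393 CPM in Pdgfrb-Cre and 699 CPM in wild type. Fosb, its relative, had 880.0 CPM in Pdgfra-Cre, 1241 CPM in Pdgfrb-Cre and 231 CPM in wild type, or 3.81-fold (2.98 to 4.87) higher in Pdgfra-Cre and 5.38-fold (4.40 to 6.59) higher in Pdgfrb-Cre. Atf3, a stress-responsive repressor, had 432 CPM in Pdgfra-Cre, 461 CPM in Pdgfrb-Cre and 78.8 CPM in wild type, or 5.49-fold (3.73 to 8.08) higher in Pdgfra-Cre and 5.85-fold (4.16 to 8.30) higher in Pdgfrb-Cre. The Krüppel-like factor Klf4 was 2.51-fold higher in Pdgfra-Cre and 2.16-fold higher in Pdgfrb-Cre, the mRNA decay factor Zfp36 2.63-fold higher in Pdgfra-Cre and 3.12-fold in Pdgfrb-Cre, and the orphan nuclear receptor Nr4a1 3.68-fold in Pdgfra-Cre and 2.81-fold in Pdgfrb-Cre. Jun had 2026 CPM in Pdgfra-Cre, 2010.3 CPM in Pdgfrb-Cre and 1327 CPM in wild type, and Junb 1897 CPM in Pdgfra-Cre, 1789.7 CPM in Pdgfrb-Cre and 1286 CPM in wild type, both short of 2-fold. Myc went the other way, with 0 UMIs in Pdgfra-Cre, 4 in Pdgfrb-Cre and 23 in wild type.

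Lymphocytes and arterial-gated barcodes of the same libraries showed part of this order. Egr1 had 296 CPM in Pdgfra-Cre lymphocytes, 128 CPM in Pdgfrb-Cre lymphocytes and 66.3 CPM in wild-type lymphocytes, and Atf3 had 198 CPM in Pdgfra-Cre, 76.6 CPM in Pdgfrb-Cre and 21.5 CPM in wild type. Fos in lymphocytes was close to level, with 510.1 CPM in Pdgfra-Cre, 407 CPM in Pdgfrb-Cre and 480.1 CPM in wild type, and Fosb had 661 CPM in Pdgfra-Cre, 399 CPM in Pdgfrb-Cre and 391 CPM in wild type. In arterial-gated barcodes Egr1 had 2719 CPM in Pdgfra-Cre, 2722 CPM in Pdgfrb-Cre and 678 CPM in wild type. The time from tissue to library is not given in the labels used here, and its part in these levels was not tested.

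The promoters of 3 of these genes are shown for the motif TGACG, the core of the site bound by CREB and ATF factors, which are known to switch on immediate early genes. Each is the 100 bases before a start of the gene in RefSeq (GRCm38.p6), printed 5′ to 3′ on the gene's strand. TGACG or its reverse complement CGTCA is in capitals. A gene can have more than 1 start, and the one shown for Atf3 lies inside its annotated span, chr1:191170296-191218039.
Fos: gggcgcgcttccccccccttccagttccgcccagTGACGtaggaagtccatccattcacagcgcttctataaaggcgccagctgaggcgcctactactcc
Fosb: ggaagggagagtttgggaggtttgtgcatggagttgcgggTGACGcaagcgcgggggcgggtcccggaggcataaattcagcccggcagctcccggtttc
Atf3: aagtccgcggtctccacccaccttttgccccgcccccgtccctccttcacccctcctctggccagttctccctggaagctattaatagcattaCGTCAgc
The Fos promoter lies at chr12:85473790-85473889 on the plus strand, with the motif 66 bases before the start. That of Fosb lies at chr7:19310046-19310145 on the minus strand, with the motif 60 bases before the start, and that of Atf3 at chr1:191183334-191183433 on the minus strand, with the motif 7 bases before the start. Within 250 bases before the start, 1 or more copies on either strand were present in 16 of the 26 promoters that the table holds for genes of the list, or 61.5%, and in 5836 of all 32851 promoters, or 17.8%. By gene, 13 of 20 had a promoter with a copy. A match describes these letters and is not evidence of binding in these cells.

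Some chemokine genes were higher in both Cre libraries. Cxcl10, a chemokine that draws activated T cells, at chr5:92346638-92348889 (minus strand), had 273 CPM in Pdgfra-Cre (191 to 378), 284 CPM in Pdgfrb-Cre (216 to 368) and 21.1 CPM in wild type (11.8 to 34.8). Its ratio to wild type was 12.9 in Pdgfra-Cre (6.91 to 25.4) and 13.5 in Pdgfrb-Cre (7.54 to 25.6). Those UMIs sat in few barcodes: 7 of 34 in Pdgfra-Cre, of which 1 held 11 of 36 UMIs, 13 of 46 in Pdgfrb-Cre, of which 1 held 27 of 58, and 13 of 286 in wild type. Lymphocytes had a UMI of Cxcl10 in 6.67% of Pdgfra-Cre, 11.9% of Pdgfrb-Cre and 3.64% of wild-type barcodes. Cxcl9, a chemokine for the same receptor, was spread more widely. It had 948 CPM in 22 of 34 Pdgfra-Cre barcodes, 848 CPM in 32 of 46 Pdgfrb-Cre barcodes and 253 CPM in 78 of 286 wild-type barcodes, or 3.75-fold (2.96 to 4.73) higher in Pdgfra-Cre and 3.35-fold (2.70 to 4.15) higher in Pdgfrb-Cre. In lymphocytes a UMI of Cxcl9 was found in 0 of 255 Pdgfra-Cre barcodes, which allows a share of up to 1.18%, 17 of 2172 Pdgfrb-Cre barcodes and 4 of 933 wild-type barcodes. Arterial-gated barcodes were also higher in both Cre libraries, with 522 CPM of Cxcl9 in Pdgfra-Cre, 564 CPM in Pdgfrb-Cre and 135 CPM in wild type.

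Among GTPases and other interferon genes, Iigp1 had 675 CPM in Pdgfra-Cre, 804 CPM in Pdgfrb-Cre and 253 CPM in wild type, and Igtp 159 CPM in Pdgfra-Cre, 83.4 CPM in Pdgfrb-Cre and 35.2 CPM in wild type. Irf1, a transcription factor of the response, had 326 CPM in Pdgfra-Cre, 397 CPM in Pdgfrb-Cre and 158 CPM in wild type, and Ubd, a ubiquitin-like modifier, 182 CPM in Pdgfra-Cre, 123 CPM in Pdgfrb-Cre and 36.6 CPM in wild type. Ifi27l2a was lower, with 83.5 CPM in Pdgfra-Cre, 19.6 CPM in Pdgfrb-Cre and 231 CPM in wild type. Over the whole interferon list, 4 of 24 measured genes were higher and 1 lower past 2-fold in Pdgfra-Cre (median log2 ratio 0.36), and 3 of 25 were higher and 1 lower in Pdgfrb-Cre (median -0.07). In the list of leukocyte adhesion genes and chemokines, 4 of 15 were higher in Pdgfra-Cre and 5 of 15 in Pdgfrb-Cre. In each comparison 1 of the 15 had 0 UMIs in the Cre library and passed the floor only through wild type. The numbers lower are therefore not given. Icam1, the ligand of leukocyte integrins, had 152 CPM in Pdgfra-Cre, 191 CPM in Pdgfrb-Cre and 54.9 CPM in wild type, or 2.77-fold (1.53 to 4.86) higher in Pdgfra-Cre and 3.49-fold (2.18 to 5.58) higher in Pdgfrb-Cre. Venous-gated barcodes shared this direction, with 1154 CPM of Icam1 in Pdgfra-Cre, 1003 CPM in Pdgfrb-Cre and 337 CPM in wild type. The neutrophil chemokine Cxcl2 had 2 UMIs in Pdgfra-Cre, 44 in Pdgfrb-Cre and 5 in wild type, and 20 of the 44 were in 1 barcode. Cxcl12, a chemokine made by stroma and endothelium, was lower, with 690.4 CPM in Pdgfra-Cre, 672 CPM in Pdgfrb-Cre and 1426 CPM in wild type.

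Within the lipid programme single genes differed while the list did not. Of the fatty acid handling list, 3 of 24 measured genes were higher past 2-fold in Pdgfra-Cre (median log2 ratio -0.02). In Pdgfrb-Cre 2 of 23 were higher and 2 lower (median 0.08). The number lower in Pdgfra-Cre is not given, because 1 of the 24 had 0 UMIs there and was measured only through wild type. Of the capillary list, 1 of 16 was higher and 2 lower in Pdgfra-Cre (median 0.04) and 2 of 16 were higher and 2 lower in Pdgfrb-Cre (median 0.10), and this list holds genes of the gate. Over all members, with the lymphatic-marked barcodes, the median of the capillary list was -0.91 in Pdgfra-Cre and -0.14 in Pdgfrb-Cre, and that of fatty acid handling -0.50 in Pdgfra-Cre and -0.12 in Pdgfrb-Cre. Of the gate genes, Gpihbp1 had 2564 CPM in Pdgfra-Cre, 2692 CPM in Pdgfrb-Cre and 1895 CPM in wild type, Cd300lg 849.7 CPM in Pdgfra-Cre, 1064 CPM in Pdgfrb-Cre and 1058 CPM in wild type, and Btnl9 357 CPM in Pdgfra-Cre, 608 CPM in Pdgfrb-Cre and 575 CPM in wild type.

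Rbp7, at chr4:149449687-149454978 (minus strand), had the largest difference of the capillary list in both comparisons. It had 387 CPM in Pdgfra-Cre (288 to 509), 284 CPM in Pdgfrb-Cre (216 to 368) and 2239 CPM in wild type (2131 to 2352), which is 5.79-fold lower in Pdgfra-Cre (4.38 to 7.81) and 7.87-fold lower in Pdgfrb-Cre (6.06 to 10.4). A UMI was present in 17 of 34 Pdgfra-Cre barcodes, 22 of 46 Pdgfrb-Cre barcodes and 250 of 286 wild-type barcodes, and at 2000 UMIs per barcode in 8 of 18 Pdgfra-Cre, 12 of 34 Pdgfrb-Cre and 111 of 117 wild-type barcodes. Among lymphocytes, 1 of 255 Pdgfra-Cre, 6 of 2172 Pdgfrb-Cre and 14 of 933 wild-type barcodes had one. Arterial-gated barcodes had the same order, with 1063 CPM in Pdgfra-Cre, 532 CPM in Pdgfrb-Cre and 2608 CPM in wild type.

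Lpl, the lipase that GPIHBP1 binds, had 281 CPM in Pdgfra-Cre (198 to 387), 373 CPM in Pdgfrb-Cre (294 to 466) and 993 CPM in wild type (921 to 1069), or 3.54-fold (2.54 to 5.07) lower in Pdgfra-Cre and 2.67-fold (2.10 to 3.42) lower in Pdgfrb-Cre. In fat, Lpl is made mainly by adipocytes. The 8 adipocyte markers summed to 637 CPM in Pdgfra-Cre, 108 CPM in Pdgfrb-Cre and 478 CPM in wild type, with 2 of the 8 at 0 in each Cre library and 1 in wild type, and their part in the result was not tested. Angptl4, a secreted inhibitor of that lipase, was higher: it had 531 CPM in Pdgfra-Cre, 731 CPM in Pdgfrb-Cre and 225 CPM in wild type, or 2.36-fold in Pdgfra-Cre (1.76 to 3.14) and 3.25-fold in Pdgfrb-Cre (2.58 to 4.08). Plin2, which coats lipid droplets, had 546 CPM in Pdgfra-Cre, 407 CPM in Pdgfrb-Cre and 242 CPM in wild type, and Aqp1 was 2.50-fold (2.21 to 2.83) higher in Pdgfra-Cre and 2.04-fold (1.82 to 2.28) higher in Pdgfrb-Cre. C1qtnf9, a secreted relative of adiponectin, had 569 CPM in Pdgfra-Cre, 686 CPM in Pdgfrb-Cre and 331 CPM in wild type. Tcf15 and Meox2, whose products form a transcription factor pair known to drive fatty acid uptake in heart and muscle capillaries, are both on the list: Tcf15 had 668 CPM in Pdgfra-Cre, 466 CPM in Pdgfrb-Cre and 331 CPM in wild type, and Meox2 220.0 CPM in Pdgfra-Cre, 265 CPM in Pdgfrb-Cre and 218 CPM in wild type. Kdr, the main receptor of VEGF and a gate gene, had 706 CPM in Pdgfra-Cre, 887 CPM in Pdgfrb-Cre and 1148 CPM in wild type.

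**Figure D4:**
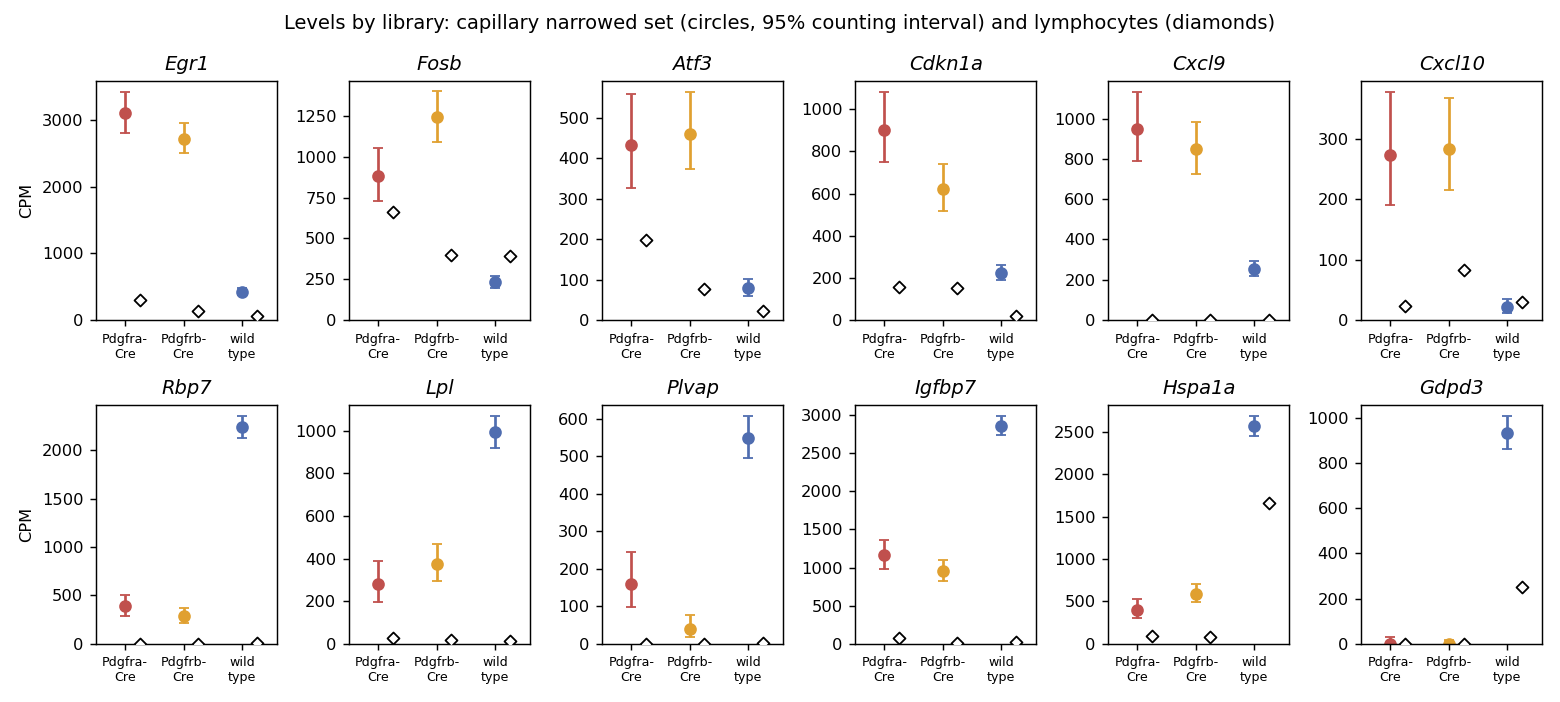
Levels (CPM) of 12 genes in capillary barcodes of the narrowed set (circles, with 95% exact Poisson intervals) and in lymphocytes of the same library (diamonds), for Pdgfra-Cre, Pdgfrb-Cre and wild type. Egr1, Atf3, Cdkn1a, Cxcl9 and Cxcl10 are higher and Rbp7, Lpl, Igfbp7, Hspa1a and Gdpd3 lower in the capillary barcodes of both Cre libraries. Lymphocytes share the direction against wild type for Egr1, Atf3, Cdkn1a, Hspa1a and Gdpd3, and for Cxcl10 and Rbp7 by the share of barcodes with a UMI.

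Plvap, which forms the diaphragms of fenestrae and caveolae, at chr8:71497765-71511752 (minus strand), was lower in both Cre libraries. It had 159 CPM in Pdgfra-Cre (98.6 to 244), 39.2 CPM in Pdgfrb-Cre (16.9 to 77.3) and 550.0 CPM in wild type (497 to 607). The ratio was 3.45-fold lower in Pdgfra-Cre (2.23 to 5.64), where 13 of the 21 UMIs were in 1 barcode, and 14.0-fold lower in Pdgfrb-Cre (7.05 to 32.7). In wild type the gene was seen in 80 of 286 barcodes, with up to 41 UMIs in 1. Venous-gated barcodes, in which Plvap is highest, had 1867 CPM in Pdgfra-Cre, 1314 CPM in Pdgfrb-Cre and 3174 CPM in wild type. Of the caveolae and transcytosis list, 0 of 10 genes were higher and 1 lower in Pdgfra-Cre, and 0 were higher and 2 lower in Pdgfrb-Cre. The second was Ehd4, a membrane remodelling ATPase, with 197 CPM in Pdgfra-Cre, 44.1 CPM in Pdgfrb-Cre and 248 CPM in wild type. Cav1, the main caveolin, had 1457 CPM in Pdgfra-Cre, 1996 CPM in Pdgfrb-Cre and 1882 CPM in wild type.

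Igfbp7, a secreted protein of vessel walls, had 1161 CPM in Pdgfra-Cre, 956 CPM in Pdgfrb-Cre and 2861 CPM in wild type, or 2.46-fold (2.09 to 2.92) lower in Pdgfra-Cre and 2.99-fold (2.58 to 3.48) lower in Pdgfrb-Cre. Cldn5, the claudin of endothelial tight junctions and a gate gene, had 2488 CPM in Pdgfra-Cre, 4030.5 CPM in Pdgfrb-Cre and 1209.8 CPM in wild type. In the junction list 3 of 14 genes were higher past 2-fold and 0 lower in Pdgfra-Cre, and 2 were higher and 2 lower in Pdgfrb-Cre. Col4a1, a basement membrane collagen, had 463 CPM in Pdgfra-Cre, 976 CPM in Pdgfrb-Cre and 716 CPM in wild type, and the basement membrane list had 0 of 14 genes higher and 2 lower in Pdgfra-Cre and 1 higher and 1 lower in Pdgfrb-Cre.

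Genes of sprouting tip cells were higher in Pdgfrb-Cre. There 5 of 14 measured list members were higher past 2-fold and 1 was lower (median log2 ratio 0.54). In Pdgfra-Cre 0 of 13 were higher (median -0.33). Of these 13 genes, 1 had 0 UMIs in Pdgfra-Cre and passed the floor only through wild type, so the number lower is not given. No test of the difference between the Cre libraries was possible with 1 library each. Apln, the ligand apelin made by tip cells, at chrX:48025146-48034853 (minus strand), had 2 UMIs in Pdgfra-Cre, 46 in Pdgfrb-Cre and 11 in wild type, or 15.2 CPM in Pdgfra-Cre, 226 CPM in Pdgfrb-Cre and 15.5 CPM in wild type. The Pdgfrb-Cre ratio was 14.6-fold higher (7.44 to 31.2), in 11 of 46 barcodes with at most 10 UMIs each. Dll4, a Notch ligand of tip cells and of arterial cells, was spread over 34 of 46 barcodes in Pdgfrb-Cre. It had 91.0 CPM in Pdgfra-Cre, 309 CPM in Pdgfrb-Cre and 104 CPM in wild type, 2.97-fold higher in Pdgfrb-Cre (2.09 to 4.21). Dll4 is also among the 3 highest genes of the arterial list in Pdgfrb-Cre. That list, which holds genes of the gate, had a median log2 ratio of 0.30 there. Angpt2, an antagonist of the receptor Tie2, had 45.5 CPM in Pdgfra-Cre, 152 CPM in Pdgfrb-Cre and 36.6 CPM in wild type. Pgf, a VEGF relative, had 1 UMI in Pdgfra-Cre, 26 in Pdgfrb-Cre and 4 in wild type, but 21 of the 26 were in 1 barcode. Esm1, a proteoglycan of tip cells, ran the other way, with 0 UMIs in Pdgfra-Cre, 2 in Pdgfrb-Cre and 45 in wild type.

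Of the receptors for VEGF, angiopoietins and apelin, 0 of 10 were past 2-fold in either comparison, with medians of 0.10 in Pdgfra-Cre and 0.14 in Pdgfrb-Cre. Of the BMP and TGF-beta list, 0 of 12 genes were past 2-fold in Pdgfra-Cre, while 4 of 13 were higher in Pdgfrb-Cre, among them the signal transducer Smad1 (2.73-fold, 1.92 to 3.86), the coreceptor Tgfbr3 (2.33-fold, 1.71 to 3.17) and the receptor Bmpr2 (2.15-fold, 1.51 to 3.05). In the NF-kB feedback list 4 of 12 were higher and 0 lower in Pdgfrb-Cre. In Pdgfra-Cre 2 of 11 were higher, with a median log2 ratio of -0.12. Of these 11 genes, 2 had 0 UMIs in Pdgfra-Cre and passed the floor only through wild type, so the number lower is not given. With those 2 at the level of 3 counts the median was -0.05. Nfkbia, the inhibitor that NF-kB itself induces, had 728 CPM in Pdgfra-Cre, 1226 CPM in Pdgfrb-Cre and 469.8 CPM in wild type.

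Telomerase was not measurable in these cells. Tert, at chr13:73626911-73649843 (plus strand), had 0 UMIs in the narrowed set of every library. The upper end of the interval was 27.99 CPM in Pdgfra-Cre, 18.1 CPM in Pdgfrb-Cre and 5.19 CPM in wild type, and over all members 1 UMI was found, in wild type. The deposited 3′-end counts do not show whether the floxed allele was recombined. Pdgfra had 1 UMI in Pdgfra-Cre, 0 in Pdgfrb-Cre and 1 in wild type, and Pdgfrb 11 UMIs in Pdgfra-Cre, 2 in Pdgfrb-Cre and 36 in wild type. The 12 mural cell markers summed to 1980 CPM in Pdgfra-Cre, 628 CPM in Pdgfrb-Cre and 1238 CPM in wild type, with 2 of the 12 at 0 in Pdgfrb-Cre and 0 in the others, and 149 of the 261 UMIs in Pdgfra-Cre were in 1 barcode. Of genes that maintain telomeres, 0 of 16 were higher past 2-fold in Pdgfra-Cre, and 0 of 14 were past 2-fold in Pdgfrb-Cre. Of the 16 genes, 1 had 0 UMIs in Pdgfra-Cre and passed the floor only through wild type, so the number lower is not given.

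Of the p53 and senescence genes, Cdkn1a stood apart in both comparisons. It encodes the cell cycle inhibitor p21 at chr17:29090976-29100727 (plus strand). It had 903 CPM in Pdgfra-Cre (748 to 1080.3), 623 CPM in Pdgfrb-Cre (519 to 741) and 222 CPM in wild type (189 to 259.7), or 4.06-fold (3.17 to 5.19) higher in Pdgfra-Cre and 2.80-fold (2.20 to 3.56) higher in Pdgfrb-Cre. A UMI was found in 22 of 34 Pdgfra-Cre, 31 of 46 Pdgfrb-Cre and 85 of 286 wild-type barcodes, and at 2000 UMIs per barcode in 11 of 18 Pdgfra-Cre, 21 of 34 Pdgfrb-Cre and 29 of 117 wild-type barcodes. Lymphocytes had 157 CPM in Pdgfra-Cre, 151 CPM in Pdgfrb-Cre and 19.7 CPM in wild type.

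The medians of those lists were near or below 0. Of the p53 targets, 3 of 18 were higher and 1 lower past 2-fold in Pdgfra-Cre (median log2 ratio -0.17), and 3 of 20 were higher in Pdgfrb-Cre (median 0.12). The number lower in Pdgfrb-Cre is not given, because 2 of the 20 had 0 UMIs there and were measured only through wild type. Beside Cdkn1a, those higher in Pdgfra-Cre were the death receptor Fas, with 10 UMIs in Pdgfra-Cre, 4 in Pdgfrb-Cre and 20 in wild type, and Ddit4, an inhibitor of mTORC1 signalling, with 30 UMIs in Pdgfra-Cre, 19 in Pdgfrb-Cre and 72 in wild type. The Pdgfra-Cre ratio was 2.70-fold for Fas (1.13 to 6.04) and 2.25-fold for Ddit4 (1.42 to 3.49). In Pdgfrb-Cre the others were Gdf15 and Eda2r, a receptor of the TNF receptor family, the second with only 0 UMIs in Pdgfra-Cre, 4 in Pdgfrb-Cre and 2 in wild type. Mdm2, the ubiquitin ligase of p53, had 3 UMIs in Pdgfra-Cre, 17 in Pdgfrb-Cre and 27 in wild type, or 22.8 CPM in Pdgfra-Cre, 83.4 CPM in Pdgfrb-Cre and 38.0 CPM in wild type. Gdf15, a secreted stress signal, had 1 UMI in Pdgfra-Cre, 35 in Pdgfrb-Cre and 4 in wild type, but 24 of the 35 in Pdgfrb-Cre were in 1 barcode. Of CDK inhibitors and senescence markers, Cdkn1a alone was higher past 2-fold, and 4 of 13 were lower in each comparison. Cdkn1c, another inhibitor, had 98.6 CPM in Pdgfra-Cre, 284 CPM in Pdgfrb-Cre and 447 CPM in wild type.

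Proliferation genes summed to 539 CPM in Pdgfra-Cre, 476 CPM in Pdgfrb-Cre and 1511 CPM in wild type. Counts of single genes were small: in each comparison 12 of the 22 had 0 UMIs in the Cre library and passed the floor of 10 CPM only through wild type, so the number past 2-fold is not given. The median log2 ratio was -1.46 in Pdgfra-Cre and -1.57 in Pdgfrb-Cre, and with these genes at the level of 3 counts it was -0.52 in Pdgfra-Cre and -0.60 in Pdgfrb-Cre. Top2a, the topoisomerase of dividing cells, had 0 UMIs in Pdgfra-Cre, 0 in Pdgfrb-Cre and 32 in wild type, with 20 of 286 wild-type barcodes positive. The 0 of 34 Pdgfra-Cre barcodes allow a share of up to 8.82% and the 0 of 46 Pdgfrb-Cre barcodes one of up to 6.52%, while the share in wild type was 6.99% (4.32 to 10.6). The exact intervals of the Cre shares end at 10.3% in Pdgfra-Cre and 7.71% in Pdgfrb-Cre, so a difference in the share was not detectable at this depth in either. Tubb5, a tubulin, had 235 CPM in Pdgfra-Cre, 216 CPM in Pdgfrb-Cre and 578 CPM in wild type, or 2.46-fold (1.71 to 3.67) lower in Pdgfra-Cre and 2.68-fold (1.96 to 3.75) lower in Pdgfrb-Cre. Pcna, the sliding clamp of DNA replication, had 114 CPM in Pdgfra-Cre, 78.5 CPM in Pdgfrb-Cre and 67.5 CPM in wild type.

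**Figure D5:**
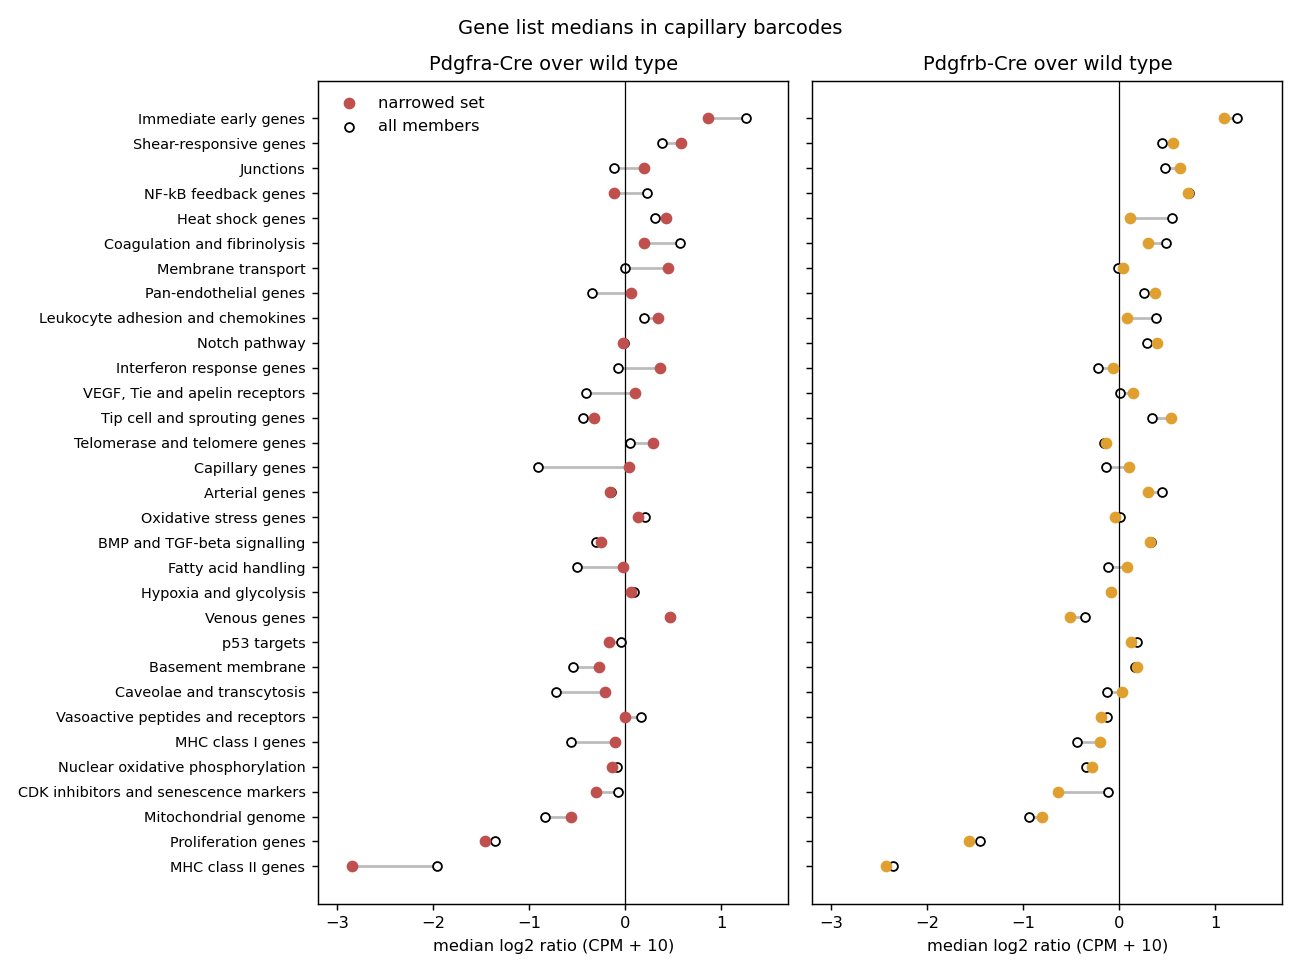
Median log2 ratio to wild type over the measured genes of 31 gene lists, for Pdgfra-Cre and Pdgfrb-Cre, in the narrowed set and over all members. In the narrowed set immediate early genes have the highest medians, 0.86 in Pdgfra-Cre and 1.09 in Pdgfrb-Cre, and MHC class II and proliferation genes the lowest, the second with 12 of 22 genes at 0 UMIs in each Cre library.

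Several of the largest differences were in genes of other cells, or were seen in lymphocytes of the same libraries too. Genes of MHC class II, which present peptides to helper T cells, were lower. In Pdgfrb-Cre 0 of 6 measured genes were higher and 4 lower past 2-fold. In Pdgfra-Cre 2 of the 5 measured genes had 0 UMIs and passed the floor of 10 CPM only through wild type. The number past 2-fold is therefore not given there. The median log2 ratio in Pdgfra-Cre was -2.84, or -2.83 with those 2 genes at the level of 3 counts. Cd74, the invariant chain, had 9 UMIs in Pdgfra-Cre, 1 in Pdgfrb-Cre and 412 in wild type, or 68.3 CPM in Pdgfra-Cre, all in 1 barcode, 4.90 CPM in Pdgfrb-Cre and 579.6 CPM in 130 of 286 wild-type barcodes. H2-Aa had 0 UMIs in Pdgfra-Cre, 1 in Pdgfrb-Cre and 159 in wild type. The 4 B cell markers summed to 0 CPM in Pdgfra-Cre, with all 4 at 0, 4.90 CPM in Pdgfrb-Cre, with 3 at 0, and 169 CPM in wild type, with none at 0, and the 4 T cell markers to 7.59 CPM in Pdgfra-Cre, 9.81 CPM in Pdgfrb-Cre and 110 CPM in wild type, with 3 at 0 in Pdgfra-Cre, 2 in Pdgfrb-Cre and 0 in wild type. The 8 macrophage markers summed to 37.9 CPM in Pdgfra-Cre, 24.5 CPM in Pdgfrb-Cre and 76.0 CPM in wild type, with 4 at 0 in Pdgfra-Cre, 6 in Pdgfrb-Cre and 1 in wild type. Over all members, 1 UMI of the leukocyte gene Ptprc was seen in 0 Pdgfra-Cre, 1 Pdgfrb-Cre and 27 wild-type barcodes. The part of leukocyte transcripts in the result was not tested. The antibody light chain gene Igkc had 2 UMIs in Pdgfra-Cre, 24 in Pdgfrb-Cre and 262 in wild type, and the T cell chemokine gene Ccl5 2 in Pdgfra-Cre, 2 in Pdgfrb-Cre and 221 in wild type. Red blood cell markers summed to 258 CPM in Pdgfra-Cre, 0 CPM in Pdgfrb-Cre and 2756 CPM in wild type, and 17 of 286 wild-type barcodes held at least 3 of their UMIs.

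Gdpd3, a glycerophosphodiester phosphodiesterase gene at chr7:126766334-126775649 (plus strand), had 0 UMIs in Pdgfra-Cre, 0 in Pdgfrb-Cre and 664 in wild type, where 205 of 286 barcodes held it. With a floor of 3 counts in each Cre library, its level was at least 41.0-fold lower in Pdgfra-Cre and at least 63.5-fold lower in Pdgfrb-Cre. Lymphocytes were also lower in both Cre libraries, with a UMI in 1 of 255 Pdgfra-Cre, 4 of 2172 Pdgfrb-Cre and 480 of 933 wild-type barcodes. H2-M9, a nonclassical MHC class I gene, had 0 UMIs in Pdgfra-Cre, 0 in Pdgfrb-Cre and 91 in wild type, 29 of them in 1 wild-type barcode, and Slamf1, a receptor of leukocytes, had 0 in Pdgfra-Cre, 0 in Pdgfrb-Cre and 70 in wild type.

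Of the heat shock genes, Hspa1a was lower and Hspa5 higher in both Cre libraries. Hspa1a, the inducible HSP70, had 402 CPM in Pdgfra-Cre, 588 CPM in Pdgfrb-Cre and 2571 CPM in wild type, or 6.40-fold (4.87 to 8.57) lower in Pdgfra-Cre and 4.37-fold (3.63 to 5.30) lower in Pdgfrb-Cre, and in lymphocytes 92.7 CPM in Pdgfra-Cre, 76.2 CPM in Pdgfrb-Cre and 1668 CPM in wild type. Hspa5, the chaperone of the endoplasmic reticulum, had 812 CPM in Pdgfra-Cre, 1142 CPM in Pdgfrb-Cre and 369 CPM in wild type, and in lymphocytes 941 CPM in Pdgfra-Cre, 1100.2 CPM in Pdgfrb-Cre and 450.4 CPM in wild type. Over the list 1 of 14 genes was higher and 2 lower past 2-fold in Pdgfra-Cre, and 2 were higher and 2 lower in Pdgfrb-Cre. Over all genes 7.51% were higher and 11.9% lower in Pdgfra-Cre, and 6.81% higher and 9.76% lower in Pdgfrb-Cre. These few genes are no result about the list.

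Transcripts of the mitochondrial genome were lower in both Cre libraries, summing to 36499 CPM in Pdgfra-Cre, 32999 CPM in Pdgfrb-Cre and 60192 CPM in wild type. Past 2-fold, 0 of 13 were higher and 4 lower in Pdgfra-Cre, and 0 higher and 3 lower in Pdgfrb-Cre. mt-Co3, a subunit of cytochrome oxidase, had 5151 CPM in Pdgfra-Cre, 5212 CPM in Pdgfrb-Cre and 11916 CPM in wild type, and in lymphocytes 5764 CPM in Pdgfra-Cre, 10553 CPM in Pdgfrb-Cre and 12170.2 CPM in wild type. The nuclear genes of oxidative phosphorylation were closer, with 0 of 32 past 2-fold in Pdgfra-Cre and 0 higher and 2 lower in Pdgfrb-Cre. The hypoxia and glycolysis list had 2 of 18 higher and 0 lower in each comparison, among them Pfkfb3, which drives endothelial glycolysis, with 114 CPM in Pdgfra-Cre, 103 CPM in Pdgfrb-Cre and 35.2 CPM in wild type.

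Among barcodes of 1 library, the median gene had a variance close to its mean. Over 1065 genes at 2000 UMIs per barcode, the median ratio of variance to mean was 1.14 in Pdgfra-Cre, 1.11 in Pdgfrb-Cre and 1.15 in wild type, where counting alone gives values near 1. At low mean counts the ratio stays near 1 even where levels vary, so it does not show that these genes varied little. The ratios rest on 18 Pdgfra-Cre, 34 Pdgfrb-Cre and 117 wild-type barcodes. Ranked by the lowest ratio of the 3 libraries, Fabp4 came next after Malat1, with ratios of 17.4 in Pdgfra-Cre, 16.8 in Pdgfrb-Cre and 26.6 in wild type. In Pdgfra-Cre alone the mitochondrial gene mt-Atp6 was also above it, at 22.3. Rgs5, a regulator of G protein signalling that is typical of pericytes, had ratios of 11.03 in Pdgfra-Cre, 6.36 in Pdgfrb-Cre and 4.71 in wild type, and Hspa1a 2.72 in Pdgfra-Cre, 7.54 in Pdgfrb-Cre and 3.63 in wild type.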

How the data were processed

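UMI counts per gene and barcode were deposited by the authors, 1 matrix per genotype, not normalised. They were made with Cell Ranger 3.1.0 and STAR 2.6 on mm10, per the submitters' processing notes. The matrices hold 2310 barcodes and 14438471 UMIs for Pdgfra-Cre, 4355 and 30826733 for Pdgfrb-Cre, and 4124 and 13352288 for wild type, over 31053 features. Feature symbols are those of the files, and 99.6% of the identifiers were found in GENCODE M21 (GRCm38), the source of gene positions.

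The gates were applied to raw counts. Nothing corrected for free RNA, and lymphocyte values stand beside genes they bear on. Scrublet, through scanpy 1.11.5, scored doublets, and the highest scores were marked at a rate of 0.8% for each 1000 kept barcodes. The marked barcodes were 16 in Pdgfra-Cre, 130 in Pdgfrb-Cre and 60 in wild type, among them 0 Pdgfra-Cre, 1 Pdgfrb-Cre and 10 wild-type members, which were left in except in 1 alternative. UMIs were summed over the barcodes of a set and scaled to CPM, with exact Poisson 95% intervals. Folds compare 2 CPM levels, their intervals being exact conditional binomial ones, and a count of 0 was set to 3 counts for a lower bound. Log2 ratios carry 10 CPM on both sides. Between genotypes, genes with at least 50 CPM in either library and 20 UMIs in the higher one were compared, and past 2-fold means a log2 ratio of at least 1 in size. These steps were tested on simulated summed counts that varied by counting error alone. That test cannot show how the intervals hold where the UMIs of a gene cluster in few barcodes. No p-value was computed, because each genotype is 1 library.

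Genes were named from the 12 highest and 12 lowest of each comparison, without mitochondrial, ribosomal, sex-linked, predicted and gate genes, the 3 highest and lowest of each of 32 lists, the 20 most abundant and 10 most variable genes, and fixed markers. Not all of these genes appear in the text, so the named genes are not the full set of extremes. The same rule was applied to the narrowed set, and a few further list genes were named after their values were seen. The members and lists were chosen with earlier results of these data known. Promoter sequences are from RefSeq. Software was Python 3.11.15, numpy 2.4.6, scipy 1.17.1, pandas 2.3.3, matplotlib 3.10.9, R 4.3.3 and edgeR 4.0.16, the last only for TMM factors. Alternatives covered the barcode filters, gates, doublets, scaling, depth, pseudocount and low-value filter.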

Additional observations from a re-analysis of the deposited data

How the results depend on the processing

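Values here are over all members unless the narrowed set is named. The wild-type share of members was 7.08% with at least 1000 genes per barcode, 8.8% with 4 endothelial genes and 8.5% with 3 capillary UMIs. In Pdgfra-Cre, 61 genes were higher past 2-fold when barcodes were thinned to 2000 UMIs, 88 in the narrowed set, 21 in the narrowed set thinned and 725 at a floor of 10 CPM. Lower genes there numbered 326 with CPM without mitochondrial, ribosomal protein and haemoglobin genes, 281 as a mean over barcodes, 290 in the narrowed set thinned and 716 at 10 CPM. In Pdgfrb-Cre, 97 were higher when thinned, 84 in the narrowed set thinned and 630 at 10 CPM, and lower genes numbered 330 with that CPM and 769 at 10 CPM. That CPM moved the median over all genes to -0.05 in Pdgfra-Cre and -0.12 in Pdgfrb-Cre, against 0.05 in Pdgfra-Cre and 0.00 in Pdgfrb-Cre as reported. Against venous-gated barcodes 8 genes were higher and 4 lower when thinned, and 157 and 124 at 10 CPM. Against arterial-gated barcodes 1 was higher with at most 10% mitochondrial UMIs, 1 in the narrowed set and 3 at 10 CPM, and 5 were lower with a pseudocount of 1 CPM and 8 at 10 CPM. The cause of these shifts was not tested, beyond the fewer or more genes that each filter lets in.

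Many log2 ratios of single named genes were counted as moved rather than reversed. In the narrowed set 51 moved and 33 stayed the same, and as a mean over barcodes 45 moved and 50 stayed. When thinned 34 moved and 61 stayed, and with a pseudocount of 1 CPM 31 moved and 65 stayed. Direction reversed in the narrowed set for the lymphatic list, with 1 measured gene left (log2 -0.27 in Pdgfra-Cre, -0.42 in Pdgfrb-Cre), and for genes high in the barcodes left out. In Pdgfra-Cre these were Fgl2 and Scn3a at -0.19, Lcn2 and Prox1 at -0.36, and Lyve1 at -0.36, or -0.51 when also thinned. In Pdgfrb-Cre they were Ccl21a (ENSMUSG00000094686) at -0.19, Prox1 at -0.36 and Lyve1 at -0.36 and -0.51. Haemoglobin genes in Pdgfrb-Cre reversed without doublets, in the narrowed set and in that set thinned: Hba-a1 to -7.10, -7.09 and -7.96, Hba-a2 to -1.88, -1.88 and -3.05, Hbb-bs to -6.93, -6.92 and -7.85, and Hbb-bt to -4.19, -4.18 and -5.27. Hba-a1 was also -0.17 as a mean over barcodes and -0.44 when thinned. The narrowed set rests on 34 barcodes and 131811 UMIs in Pdgfra-Cre and 46 barcodes and 203946 UMIs in Pdgfrb-Cre, against 286 barcodes and 710877 UMIs in wild type, so genes under about 50 CPM are poorly measured there. No paired analysis was possible because each genotype has 1 library.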

Other observations

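Kept endothelial barcodes with at least 2 venous and at least 2 arterial UMIs numbered 25 in Pdgfra-Cre, 45 in Pdgfrb-Cre and 27 in wild type. Those with too few UMIs for the capillary, venous or arterial gate numbered 10 in Pdgfra-Cre, 17 in Pdgfrb-Cre and 115 in wild type. Neither set enters a comparison.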
